A study of Mus musculus with 3 samples.

Results

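The 10 genes described here encode transcription factors that control endothelial cells, the cells lining blood vessels. They were taken by symbol and belong to 4 families: the ETS factors Erg, Fli1 and Ets1, the SOXF factors Sox7, Sox17 and Sox18, the Krüppel-like factors Klf2 and Klf4, and the forkhead factors Foxq1 and Foxf2. All 10 were found among 29787 genes, and all 10 reached a level of 1 in at least 1 library, as did 16604 genes in all. The samples were brain vessels from mice aged 3 months, with 1 library for each group. The Cx43-deleted mice (hGFAP-Cre/Cx43fl/fl, Cx43 -/-) had a mixed C57BL6-BALB/c background. Their connexin 43 gene was deleted by a Cre recombinase that the human GFAP promoter drives in astroglia and in radial glia. Wild-type (WT) mice of this mixed background formed the next group, and WT C57BL6 mice the last. The sources used here do not say if 1 animal or several gave a library.

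ETS factors bind a GGAA core, which is present in most known endothelial enhancers. Erg and Fli1 maintain endothelial identity in adults, and SOXF factors act in arterial and vessel development. Klf2 and Klf4 are switched on by laminar blood flow through the MEKK3 and ERK5 kinases and MEF2 transcription factors, and they keep endothelium anticoagulant and non-inflammatory. Foxq1 and Foxf2 are enriched in brain endothelium relative to other vascular beds. Foxf2 is also expressed by pericytes, and its loss weakens the blood-brain barrier in mice.

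Reads per library totalled 54975610 with the deletion, against 21170766 for the WT mixed background and 24830975 for WT C57BL6. Gja1, the deleted gene, was at a level of 47.98 in the Cx43-deleted library, against 202 and 202 in the WT libraries. All 20 endothelial markers were measured, and their summed level was 11216, 11622 and 18916 in the same order of libraries. RNA of other cells was present too: pericyte markers summed to 3241, 3256 and 5262, smooth muscle markers to 3142, 5118 and 3873 and oligodendrocyte markers to 13413, 13878 and 17309. Mbp alone made 11585, 12015 and 15382 of the oligodendrocyte sums. Reads on overlapping transcripts of a gene enter such sums more than once, so the sums do not rank cell types by their RNA. Smooth muscle and neuron markers ran the other way between the WT libraries. All 10 smooth muscle markers were higher on the WT mixed background than in WT C57BL6, with a median log2 ratio of 0.46. Of 11 neuron markers, 7 were higher there and 4 lower, and their sums were 8884, 9130 and 6553. The neuron median log2 ratio was −0.05 to the WT mixed background and 0.31 to WT C57BL6, and 0.36 for the WT mixed background over WT C57BL6. The part of neuronal and smooth muscle RNA in the results below was not tested. Sums were low for microglia and macrophages (397, 366 and 545) and for lymphocytes (25.5, 21.03 and 28.8). In such bulk samples, fewer cells of a type and less RNA per cell cannot be told apart. Positions below are on GRCm38. A level is the sum of transcript counts of a gene, scaled to a common library size (CPM). Folds compare reads on the most abundant transcript and carry 95% counting intervals, which leave out variation between animals. Without replicates no test was made, and every difference is between single libraries.

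Factors of a family share their DNA-binding domain. The longest identical stretches of their coding sequences are shown because reads lying wholly within them could not be assigned to 1 member. They were 32 bases or shorter in all 8 pairs within a family. Those printed code for part of the ETS domain, the HMG box and the forkhead domain. They come from GENCODE M21 transcripts (GRCm38) and have no capitals, since every base is shared.
Fli1 and Ets1, 21 bases: gatccagctgtggcagtttct
Sox17 and Sox18, 29 bases: gagaagcggcccttcgtggaagaggccga
Foxq1 and Foxf2, 32 bases: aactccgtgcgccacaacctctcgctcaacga
Klf2 and Klf4 shared 14 bases at most, and Erg and Fli1 shared 22.

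Of the 10 factors, 9 were lowest in the Cx43-deleted library, 0 were highest there, and Klf2 lay between the WT libraries. Over all measured genes, 35.6% lay below both WT libraries, 33.2% above both and 31.2% between them. For 7 factors both folds were below 1 by more than counting error, against 16.1% of all genes. That share was not matched for level, and genes with few reads have wider intervals. No factor was 2-fold or more from both WT libraries, where 0.379% of all genes were 2-fold below and 0.428% 2-fold above. WT C57BL6 was the highest library for 9 factors, and for 43.8% of all genes.

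The log2 ratios to the WT mixed-background library had a median of −0.25, from −0.54 to 0.58, with 1 factor higher and 9 lower. Of all genes, 50.5% were higher and 49.5% lower. Distances to WT C57BL6 were larger, with a median of −0.84 and a range of −1.20 to −0.24. All 10 factors were lower there, against 52.9% of all genes, and 47.1% of all genes were higher. The WT libraries also differed: WT C57BL6-BALB/c over WT C57BL6 gave a median of −0.58 with 9 factors lower and 1 higher, against 53.3% and 46.7% of all genes. The medians over all measured genes were 0.00295, −0.03 and −0.03 in these comparisons, which share libraries and are not independent of each other.

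**Figure D1:**
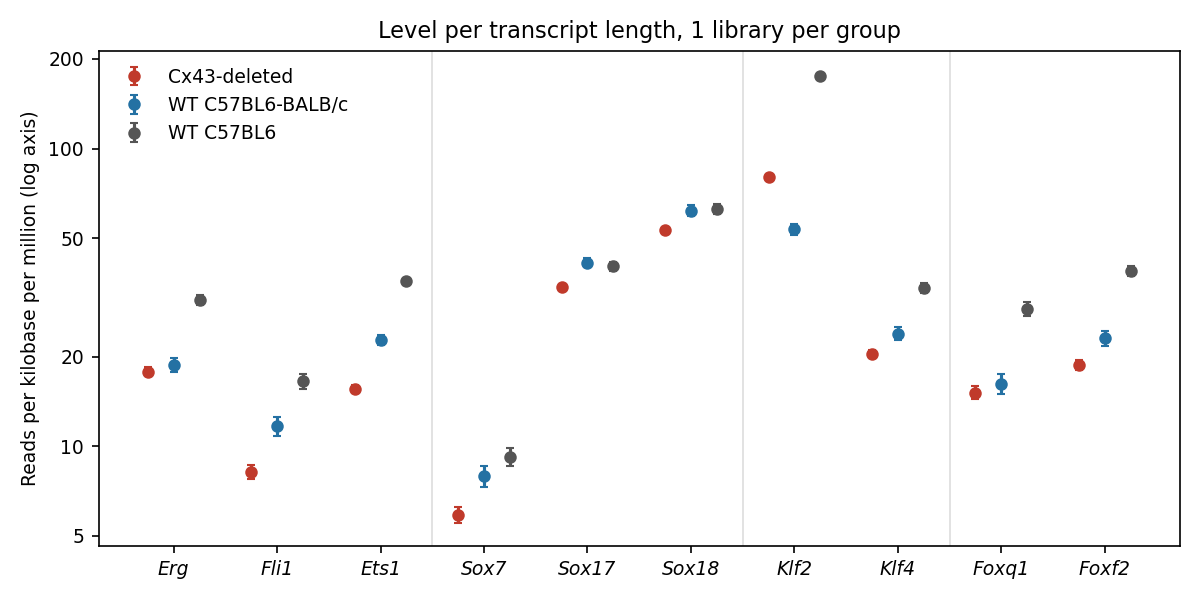
Level of each factor per transcript length (RPKM, log axis) in the 3 libraries, 1 point per library with 95% Poisson counting intervals. Klf2 spans 53.5 in WT C57BL6-BALB/c to 175 in WT C57BL6, while Sox17 and Sox18 are nearly level between the WT libraries.

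Levels per length (reads per kilobase, scaled by the library total times its TMM factor; RPKM) put the factors in a similar order in each library. With the deletion, Klf2 was the most abundant at 80.2 RPKM, followed by Sox18 at 53.05 RPKM and Sox17 at 34.3 RPKM. Sox7 was the least abundant at 5.86 RPKM and Fli1 the next at 8.18 RPKM, and both kept these ranks in the 3 libraries. Klf4, Foxf2, Erg, Ets1 and Foxq1 lay between, from 20.4 down to 15.1 RPKM. Counting intervals overlapped between Foxf2 and Erg and between Ets1 and Foxq1, so these neighbours were not separated. In WT C57BL6-BALB/c the first places were exchanged, with Sox18 at 61.9 and Klf2 at 53.5 RPKM.

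Ets1 was the factor furthest below the WT mixed-background library. It encodes an ETS factor of angiogenic endothelium and of lymphocytes. Ets1 (ENSMUSG00000032035; chromosome 9, 32636221 to 32757820, plus strand) was at 154 CPM in the Cx43-deleted library, against 225 CPM in the WT C57BL6-BALB/c library and 355 CPM in the WT C57BL6 library. These rest on 4235, 2440 and 4602 reads on a transcript of 5060 bases. The level was lowest with the deletion and highest in WT C57BL6. It was 1.46-fold (1.39 to 1.53) lower than in the WT library of the same background and 2.29-fold (2.20 to 2.39) lower than in WT C57BL6.

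Fli1, which maintains endothelial, megakaryocyte and leukocyte programmes, lies next to Ets1 and had a similar profile. Fli1 (ENSMUSG00000016087; chromosome 9, 32422204 to 32542861, minus strand) is 93359 bases from Ets1 with no protein-coding gene between. Its level was 25.4 CPM in the Cx43-deleted library, against 36.3 CPM in the WT C57BL6-BALB/c library and 51.2 CPM in the WT C57BL6 library, from 1363, 769 and 1302 reads. It was 1.43-fold (1.30 to 1.56) and 2.02-fold (1.87 to 2.18) lower, in that order of WT libraries. On the CPM scale the second log2 ratio was −0.998, just short of 2-fold.

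Erg is the ETS factor most restricted to endothelium in adult vessels. Erg (ENSMUSG00000040732; chromosome 16, 95359169 to 95586593, minus strand) was at 148 CPM in the Cx43-deleted library, against 155 CPM in the WT C57BL6-BALB/c library and 249.99 CPM in the WT C57BL6 library. Both libraries of the mixed background lay close together, and WT C57BL6 stood above them. The fold to WT C57BL6-BALB/c was 0.951 (0.892 to 1.01), a difference not detectable at this depth, while that to WT C57BL6 was 0.572 (0.543 to 0.603). The 3 Erg transcripts in the tables share most reads, and their folds to WT C57BL6-BALB/c were 0.959 (Erg-201), 0.951 (Erg-202) and 0.965 (Erg-203).

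The ratio of a pair of factors within a library does not depend on how libraries are scaled. This measure was chosen after the values had been seen. Erg to Ets1, per length, was 1.14 (1.09 to 1.19) in the Cx43-deleted library, 0.823 (0.769 to 0.880) in the WT mixed-background library and 0.868 (0.828 to 0.911) in WT C57BL6. The intervals of both WT libraries overlapped each other and not that of the Cx43-deleted library. Whether Erg or Ets1 is the more abundant depends on the transcript taken and is not settled here. Erg-202, used for these ratios, has 3345 bases, of which 386, 419 and 422 had no read in the same order. Erg-203 has 2007 bases, of which 4, 23 and 0 had no read, and it held 2299, 942 and 1767 reads. Erg to Fli1 was 2.18 (2.04 to 2.32) in the Cx43-deleted library, 1.60 (1.47 to 1.75) in the WT mixed-background library and 1.89 (1.76 to 2.02) in WT C57BL6, with no overlap between any of the intervals. For Fli1 to Ets1 the ratios were 0.524 (0.493 to 0.557) with the deletion, 0.513 (0.473 to 0.557) on the WT mixed background and 0.461 (0.433 to 0.490) in WT C57BL6. The intervals of both mixed-background libraries overlapped here. Leukocytes also make Fli1 and Ets1. Of 14 lymphocyte markers 5 were measured, with the low sums given above, and their part in these ratios was not tested.

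**Figure D2:**
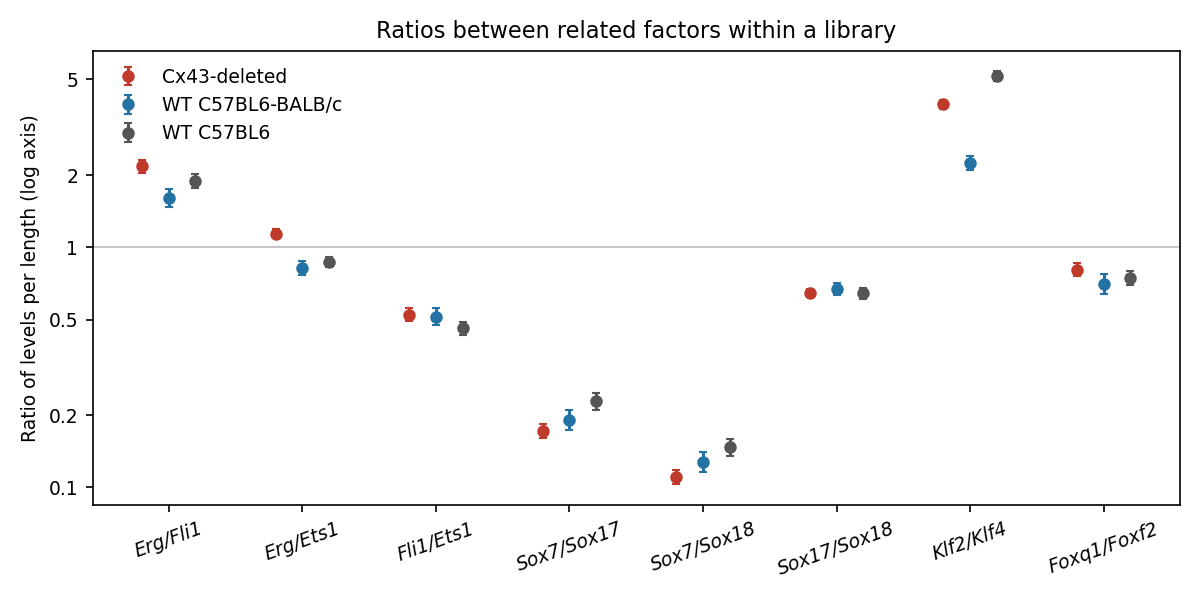
Ratio of the levels per length of related factors within each of the 3 libraries (log axis), with 95% exact binomial counting intervals. The Cx43-deleted library has the highest Erg to Ets1 ratio (1.14), and Klf2 to Klf4 spans 2.24 in WT C57BL6-BALB/c to 5.17 in WT C57BL6.

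Among the SOXF factors, Sox17 and Sox18 were nearly level between the WT libraries and lower with the deletion. Sox17 promotes arterial identity. Sox17 (ENSMUSG00000025902; chromosome 1, 4490931 to 4497354, minus strand) was at 189 CPM in the Cx43-deleted library, against 230.1 CPM in the WT C57BL6-BALB/c library and 225 CPM in the WT C57BL6 library. The level was 1.21-fold (1.15 to 1.26) and 1.17-fold (1.12 to 1.23) lower with the deletion, while the fold of the WT mixed background over WT C57BL6 was 1.03 (0.977 to 1.08), within counting error. Its transcripts Sox17-201 and Sox17-202 were 1.21-fold and 1.23-fold below WT C57BL6-BALB/c.

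Sox18 is mutated in a human syndrome of lymphatic and vascular defects. Sox18 (ENSMUSG00000046470; chromosome 2, 181669836 to 181671640, minus strand) was at 85.9 CPM in the Cx43-deleted library, against 100.2 CPM in the WT C57BL6-BALB/c library and 101 CPM in the WT C57BL6 library. It was 1.17-fold (1.11 to 1.23) and 1.18-fold (1.12 to 1.24) lower with the deletion, in that order of WT libraries, and the fold of WT C57BL6-BALB/c over WT C57BL6 was 0.989 (0.933 to 1.05). The Sox17 to Sox18 ratio per length was 0.646 (0.621 to 0.671) in the Cx43-deleted library, 0.669 (0.632 to 0.708) in the WT mixed-background library and 0.643 (0.611 to 0.678) in WT C57BL6, with overlap between all 3 intervals.

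Sox7, the least abundant SOXF factor, acts in vessel development. Sox7 (ENSMUSG00000063060; chromosome 14, 63943673 to 63950732, plus strand) was at 19.3 CPM in the Cx43-deleted library, against 26.1 CPM in the WT C57BL6-BALB/c library and 30.3 CPM in the WT C57BL6 library, from 1037, 553 and 770 reads. It was 1.35-fold (1.21 to 1.50) lower with the deletion than in the WT library of that background, and 1.57-fold (1.43 to 1.72) lower than in WT C57BL6. The ratio of Sox7 to Sox17 was 0.171 (0.160 to 0.183) in the Cx43-deleted library, 0.191 (0.174 to 0.209) in the WT mixed-background library and 0.228 (0.211 to 0.247) in WT C57BL6. The first interval overlapped the second and not the third.

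Klf2 was the one factor above the WT mixed-background library, and the one with the widest spread. It is a main flow-responsive factor of endothelium and also keeps T cells quiescent. Klf2 (ENSMUSG00000055148; chromosome 8, 72319033 to 72321656, plus strand) was at 148 CPM in the Cx43-deleted library, against 98.8 CPM in the WT C57BL6-BALB/c library and 324 CPM in the WT C57BL6 library, from 7947, 2096 and 8222 reads. With the deletion it was 1.50-fold (1.43 to 1.57) higher than in the WT C57BL6-BALB/c library, and 2.18-fold (2.12 to 2.25) lower than in WT C57BL6. Between the WT libraries it was 3.27-fold (3.12 to 3.44) lower on the mixed background. No other factor differed by 2-fold between the WT libraries, where 2.09% of all genes were 2-fold lower and 1.17% 2-fold higher. Its order, with WT C57BL6 highest and WT C57BL6-BALB/c lowest, was that of 17.3% of all genes and of no other factor. Among cell type markers, 6 of 10 for choroid plexus and ependyma had this order, and the other 4 were below both WT libraries. The median log2 ratios of these 10 were 0.36, −0.90 and −1.09, against 0.58, −1.12 and −1.71 for Klf2. The order was also that of 8 of 20 endothelial and 6 of 11 pericyte markers. The part of RNA from these cells in the Klf2 values was not tested. Of the 1847 bases of Klf2, 82 had no read with the deletion, 306 on the WT mixed background and 163 in WT C57BL6.

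Klf4, which shares the flow response with Klf2 and also regulates smooth muscle, was lowest with the deletion. Klf4 (ENSMUSG00000003032; chromosome 4, 55527143 to 55532466, minus strand) was at 88.5 CPM in the Cx43-deleted library, against 103 CPM in the WT C57BL6-BALB/c library and 146 CPM in the WT C57BL6 library. This was 1.17-fold (1.10 to 1.24) and 1.66-fold (1.58 to 1.75) lower than in the WT libraries. Klf2 to Klf4, per length, was 3.93 (3.78 to 4.10) in the Cx43-deleted library, 2.24 (2.10 to 2.40) in the WT mixed-background library and 5.17 (4.94 to 5.40) in WT C57BL6, and none of these intervals overlapped. Part of Klf4 had no read in each library, 563, 604 and 522 of its 3029 bases.

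Promoter windows of Klf2 and Klf4 are shown because these factors answer to the same pathway and differed here. Each is the 250 bases before the gene start, 5′ to 3′ on the strand of the gene, from RefSeq on GRCm38.p6, whose table held 4 of the 10 factors. These RefSeq starts, 72319062 for Klf2 and 55532475 for Klf4, differ from the GENCODE M21 starts given above. The end of the Klf2 window therefore lies within the gene as given there. Capitals mark a match to the MEF2 consensus, which was searched after the windows had been seen.
Klf2, chr8:72318812-72319061, plus strand: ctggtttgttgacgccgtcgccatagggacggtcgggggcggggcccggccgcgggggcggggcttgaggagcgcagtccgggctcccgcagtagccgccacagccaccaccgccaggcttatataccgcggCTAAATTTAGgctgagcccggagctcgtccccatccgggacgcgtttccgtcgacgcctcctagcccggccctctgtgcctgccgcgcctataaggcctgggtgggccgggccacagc
Klf4, chr4:55532476-55532725, minus strand: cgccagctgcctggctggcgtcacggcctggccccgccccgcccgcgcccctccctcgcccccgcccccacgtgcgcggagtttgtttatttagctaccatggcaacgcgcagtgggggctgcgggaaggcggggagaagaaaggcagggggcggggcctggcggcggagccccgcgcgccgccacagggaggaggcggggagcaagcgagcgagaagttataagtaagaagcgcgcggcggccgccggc
The Klf2 window held 1 MEF2 match, 118 to 109 bases before the RefSeq start, as 0.508% of 32851 promoter windows held at least 1. Because the pattern was picked with this window in view, that share does not measure how unexpected the match is. The Klf4 window held none. Both were rich in GC, at 71.2% and 74.0%, where the median over all windows was 52.4%.

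Motifs of the factors' own families were searched on both strands of these windows. They were CCGGAAG for ETS, AACAAT for SOX, CACNCCC for KLF and TGTTTNC for forkhead factors, present in 6.91%, 9.42%, 26.1% and 17.8% of all windows. The windows of Klf2, Klf4 and Foxf2 held none of them, which says only that these letters are absent there. Erg has 3 starts in the table, and the window with the most kinds of match is shown, with capitals marking the matches. The first run of capitals is a SOX match on the opposite strand that overlaps a forkhead match, and the second is a KLF match.
Erg, chr16:95459349-95459598, minus strand: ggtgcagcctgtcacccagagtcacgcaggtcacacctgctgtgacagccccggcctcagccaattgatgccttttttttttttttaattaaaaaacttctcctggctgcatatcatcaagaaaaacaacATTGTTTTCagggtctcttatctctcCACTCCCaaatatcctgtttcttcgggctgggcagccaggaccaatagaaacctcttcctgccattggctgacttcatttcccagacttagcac

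Both forkhead factors were lowest with the deletion and highest in WT C57BL6. Foxf2 (ENSMUSG00000038402; chromosome 13, 31625816 to 31631403, plus strand) was at 44.3 CPM in the Cx43-deleted library, against 54.5 CPM in the WT C57BL6-BALB/c library and 91.5 CPM in the WT C57BL6 library, from 2375, 1156 and 2325 reads. It was 1.23-fold (1.15 to 1.32) lower than in the WT library of the same background and 2.07-fold (1.95 to 2.19) lower than in WT C57BL6. Foxq1 (ENSMUSG00000038415; chromosome 13, 31556134 to 31560976, plus strand) lies 64839 bases from Foxf2 with no protein-coding gene between. Foxq1 was at 30.6 CPM in the Cx43-deleted library, against 32.8 CPM in the WT C57BL6-BALB/c library and 58.6 CPM in the WT C57BL6 library. Its fold to WT C57BL6-BALB/c was 0.933 (0.853 to 1.02), not detectable at this depth, and it was 1.91-fold (1.78 to 2.05) lower than in WT C57BL6. The Foxq1 values are uncertain. Of its exon bases in GENCODE M21, 66.1% overlap A530084C06Rik on the other strand, and the library kit does not keep the strand. Reads were counted on a Foxq1 transcript of 2026 bases, and the overlap of that transcript was not measured. Smaller overlaps, also of GENCODE M21 exon bases, touch Sox17 (16.8%, with Gm37587) and Foxf2 (4.15%, with Gm27516).

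Ets1, Klf2 and Foxf2 were at least 2-fold below WT C57BL6, which makes 3 of 10 factors against 2.91% of all genes, while 0 factors and 1.54% of all genes were 2-fold above it. None was 2-fold from WT C57BL6-BALB/c, against 1.01% of all genes 2-fold lower and 1.05% 2-fold higher. By counting interval, 7 were below WT C57BL6-BALB/c and 1 above, against 23.6% and 25.3% of all genes. All 10 were below WT C57BL6 by this measure and 0 above, against 38.0% and 31.8%. Between the WT libraries, 8 were lower on the mixed background and 0 higher, against 32.9% and 27.1%. Shares by counting interval depend on read number and were not matched for level.

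**Figure D3:**
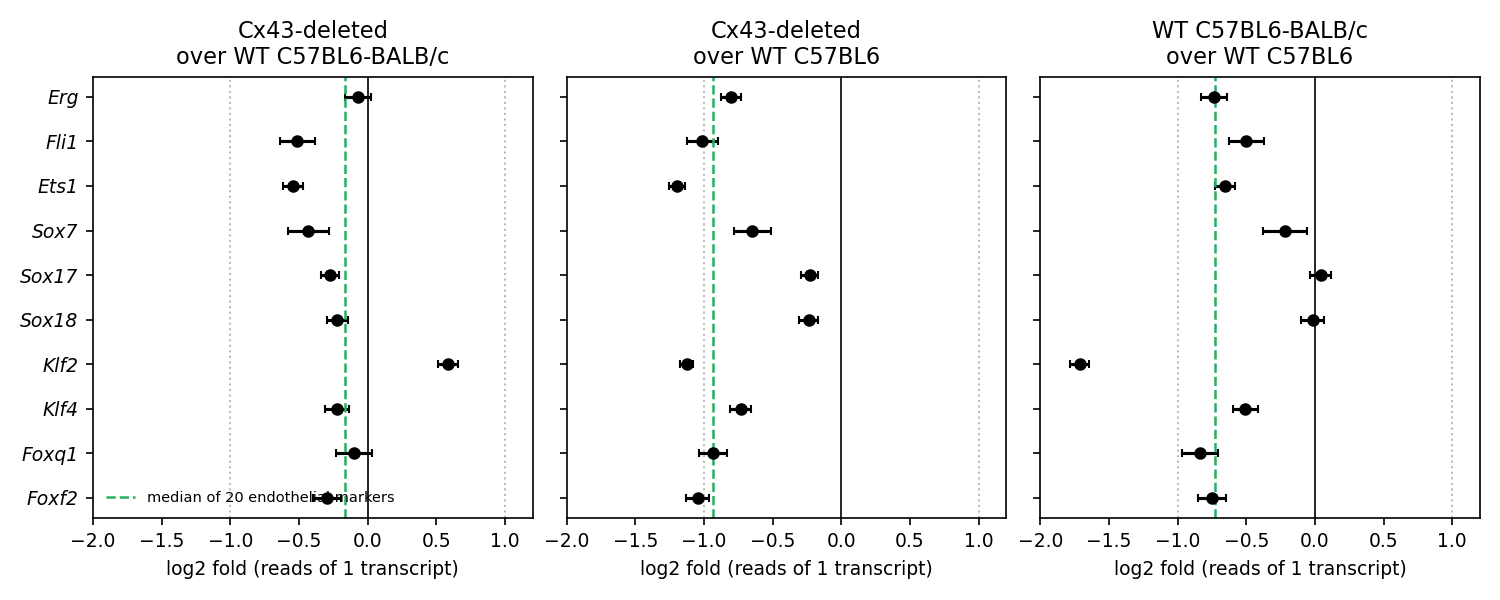
Log2 fold of each factor from the reads of 1 transcript, with 95% exact binomial counting intervals, for the 3 pairs of libraries. The green dashed line is the median log2 ratio of the 20 endothelial markers (−0.16, −0.93 and −0.73 from left to right) and the dotted lines mark 2-fold. Klf2 is the one point clearly right of 0 in the left panel, and Sox17 and Sox18 lie near 0 in the right panel.

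The medians of the 20 endothelial markers had the same signs, at −0.16 to WT C57BL6-BALB/c, −0.93 to WT C57BL6 and −0.73 for the WT libraries. Of the 20 markers, 12 were below both WT libraries, 0 were above both, and 8 lay between them, higher with the deletion than on the WT mixed background. Vwf, von Willebrand factor, was one of these, at 1956 CPM with the deletion, against 1533 on the WT mixed background and 2153 in WT C57BL6, and is given as an example chosen after its values were seen. Pecam1, an endothelial adhesion molecule, was at 1145 CPM in the Cx43-deleted library, against 1378 CPM in the WT C57BL6-BALB/c library and 2264 CPM in the WT C57BL6 library. Cldn5, the main claudin of the brain barrier, was at 466 CPM with the deletion, against 529 on the WT mixed background and 1164 in WT C57BL6, and Cdh5, VE-cadherin, at 190.4 CPM with the deletion, against 244 on the WT mixed background and 392 in WT C57BL6. After subtraction of the marker median, the factors had medians of −0.09, 0.10 and 0.15 on the log2 scale in these comparisons, and none was 2-fold from the marker median in any of them. Above it were 3, 6 and 7 of the 10 factors. With Pecam1, Cdh5 and Cldn5 as the only markers, these numbers were 5, 8 and 7. Relative to WT C57BL6, Sox17 and Sox18 differed from the marker median by 0.69 and 0.70. Klf2 differed from it by 0.75 relative to WT C57BL6-BALB/c and by −0.98 between the WT libraries. Below it in both comparisons of the Cx43-deleted library were Ets1 (−0.38 and −0.26), Fli1 (−0.34 and −0.06) and Foxf2 (−0.13 and −0.10).

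Other genes of the same protein families had medians nearer 0. In the lists that follow, a pair of medians gives the log2 ratio to WT C57BL6-BALB/c and then that to WT C57BL6. The counts of each list stand against 35.6% of all genes below both WT libraries and 33.2% above both. Among 18 measured ETS genes outside the 10, 8 lay below both WT libraries while 4 were above both, with −0.09 and −0.10 as medians. Spi1, the ETS factor of myeloid cells, was the furthest of them, at 2.37 CPM with the deletion, against 3.73 on the WT mixed background and 4.72 in WT C57BL6. These rest on 106, 58 and 87 reads. The Spi1 fold to WT C57BL6-BALB/c was 0.722 (0.520 to 1.01), a difference not detectable at this depth. Among 10 other SOX genes, 5 were below both and 3 above both (medians −0.11 and −0.05). Sox9, made by astrocytes, was at 24.5 CPM with the deletion, against 33.8 on the WT mixed background and 42.5 in WT C57BL6, and Sox11, a factor of immature neurons, at 27.7 CPM with the deletion, against 20.9 on the WT mixed background and 16.5 in WT C57BL6. For the 11 other KLF genes the counts were 4 and 3 (medians 0.04 and −0.11), and Klf15, a glucocorticoid-induced factor, was at 86.01 CPM with the deletion, against 59.4 on the WT mixed background and 66.6 in WT C57BL6. For 23 other forkhead genes they were 10 and 5 (medians −0.07 and −0.14), and Foxj1, the factor of motile cilia, was at 64.7 CPM with the deletion, against 103 on the WT mixed background and 95.02 in WT C57BL6. Ependymal and choroid plexus markers summed to 3797, 2857 and 7242. Ttr alone made 3194, 2311 and 6204 of this, and is given after its values were seen. Of these 10 markers, 4 were below both WT libraries, 0 above both and 6 between. The 4 were Foxj1 itself, Ccdc153, Tmem212 and Rarres2. The part of ependymal and choroid plexus RNA in the Foxj1 values was not tested.

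Of 36 other endothelial transcription factors that were measured, 22 lay below both WT libraries and 7 above, none by 2-fold, with medians of −0.06 and −0.33. Bcl6b, a repressor enriched in endothelium, was the furthest, at 12.9 CPM with the deletion, against 23.9 on the WT mixed background and 37.2 in WT C57BL6. Heyl, a Notch target, was at 24.7 CPM with the deletion, against 44.4 on the WT mixed background and 69.7 in WT C57BL6, and Lmo2, a bridging factor of the TAL1 complex, at 157 CPM with the deletion, against 221 on the WT mixed background and 398 in WT C57BL6. Likeness was measured by the distance between the log2 ratios to both WT libraries over 35 of these genes and the 3 libraries. Tal1 was nearest to Foxq1 (0.0360), Tcf7l1 to Sox18 (0.0795), Mef2c to Sox17 (0.0922) and Id3 to Klf4 (0.102). Lmo2 was nearest to Ets1 (0.150) and, with 0.343, to Fli1. Irf1 was nearest to Erg (0.120), Tbx3 to Sox7 (0.161) and Meox1 to Foxf2 (0.211). Klf2 had the most distant nearest gene, Meox1, at 0.677.

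Endothelial genes with known ETS-bound enhancers or promoters had negative medians too. Of 25 measured, 20 were below both WT libraries while 0 were above both, with medians of −0.21 and −0.94, and 13 of them are also among the endothelial markers. Tek, the angiopoietin receptor, was at 467 CPM with the deletion, against 676 on the WT mixed background and 1054 in WT C57BL6. Of 18 genes tied to SOXF factors, 15 were below both and 0 above (medians −0.20 and −0.62), with Gja5, an arterial connexin, at 16.7 CPM with the deletion, against 35.3 on the WT mixed background and 33.9 in WT C57BL6. Of 14 arterial genes, 13 were below both and 0 above (medians −0.27 and −1.05). The ETS-bound, SOXF and arterial lists share genes, Dll4 and Notch4 among them, so their counts are not independent. The same holds for the lists of venous genes, Klf2 and Klf4 targets, upstream genes and barrier genes given below. Each of them shares genes with these lists or with the endothelial markers. Fbln5, an elastic fibre protein, was the one arterial gene 2-fold below both, at 73.8 CPM with the deletion, against 153 on the WT mixed background and 152 in WT C57BL6. Of 11 venous genes, 7 were below both and 1 above (medians −0.11 and −0.40). Smooth muscle markers had medians of −0.84 and −0.42, with 9 of 10 below both, and their part in the arterial values was not tested.

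Genes that Klf2 and Klf4 are known to raise and those they restrain both had negative medians. Of 20 raised genes, 11 were below both WT libraries while 2 were above both (medians −0.21 and −0.48). Adamts1, a secreted protease, was at 115 CPM with the deletion, against 172 on the WT mixed background and 403 in WT C57BL6, and Nppc, C-type natriuretic peptide, at 1.90 CPM with the deletion, against 4.53 on the WT mixed background and 3.50 in WT C57BL6. Of 10 restrained genes, 7 were below both and 0 above both (medians −0.37 and −0.78). Sele, E-selectin, was at 0.447 CPM with the deletion, against 1.27 on the WT mixed background and 1.77 in WT C57BL6. Klf2 and Klf4 are themselves induced quickly by stimuli that induce immediate early genes, of which 23 of 25 were below both, with medians of −0.93 and −1.31. Their part in the Klf2 and Klf4 values was not tested.

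Upstream of Klf2 and Klf4, genes of flow sensing, of the cerebral cavernous malformation complex and of the MEKK3, ERK5 and MEF2 chain had medians near 0. Of 18 measured, 7 were below both WT libraries while 8 were above both, with medians of 0.03 and 0.01, and of 0.02 for the WT libraries. Heg1, a receptor that anchors the cavernous malformation complex, was at 603 CPM with the deletion, against 786 on the WT mixed background and 873 in WT C57BL6. The MEF2 genes are given because of the match in the Klf2 window, a choice made after their values were seen. Mef2a was at 653 CPM with the deletion, against 632 on the WT mixed background and 541 in WT C57BL6, Mef2d at 562 CPM with the deletion, against 507 on the WT mixed background and 482 in WT C57BL6 and Mef2c at 21.1 CPM with the deletion, against 26.1 on the WT mixed background and 23.6 in WT C57BL6.

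The Wnt and beta-catenin arm, which lies upstream of Foxq1, Foxf2 and Sox17 in brain endothelium, had 10 of 19 measured genes below both WT libraries and 3 above. Its medians were −0.03 and −0.31, and −0.43 for the WT libraries. Nkd1, a feedback inhibitor that Wnt signalling induces, was at 37.6 CPM with the deletion, against 57.3 on the WT mixed background and 64.1 in WT C57BL6, and Tspan12, a co-receptor for Norrin, at 52.9 CPM with the deletion, against 76.9 on the WT mixed background and 92.3 in WT C57BL6. Axin2, another feedback inhibitor that Wnt signalling induces, was above both WT libraries, at 316 CPM with the deletion, against 269 on the WT mixed background and 251 in WT C57BL6, and was added after its values were seen. Of 20 barrier genes, 9 were below both and 2 above (medians 0.03 and −0.62). Slc16a1, a lactate transporter, was at 84.1 CPM with the deletion, against 144 on the WT mixed background and 255 in WT C57BL6, while Slc2a1, the glucose transporter of the barrier, was at 2828 CPM with the deletion, against 1653 on the WT mixed background and 2162 in WT C57BL6.

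**Figure D4:**
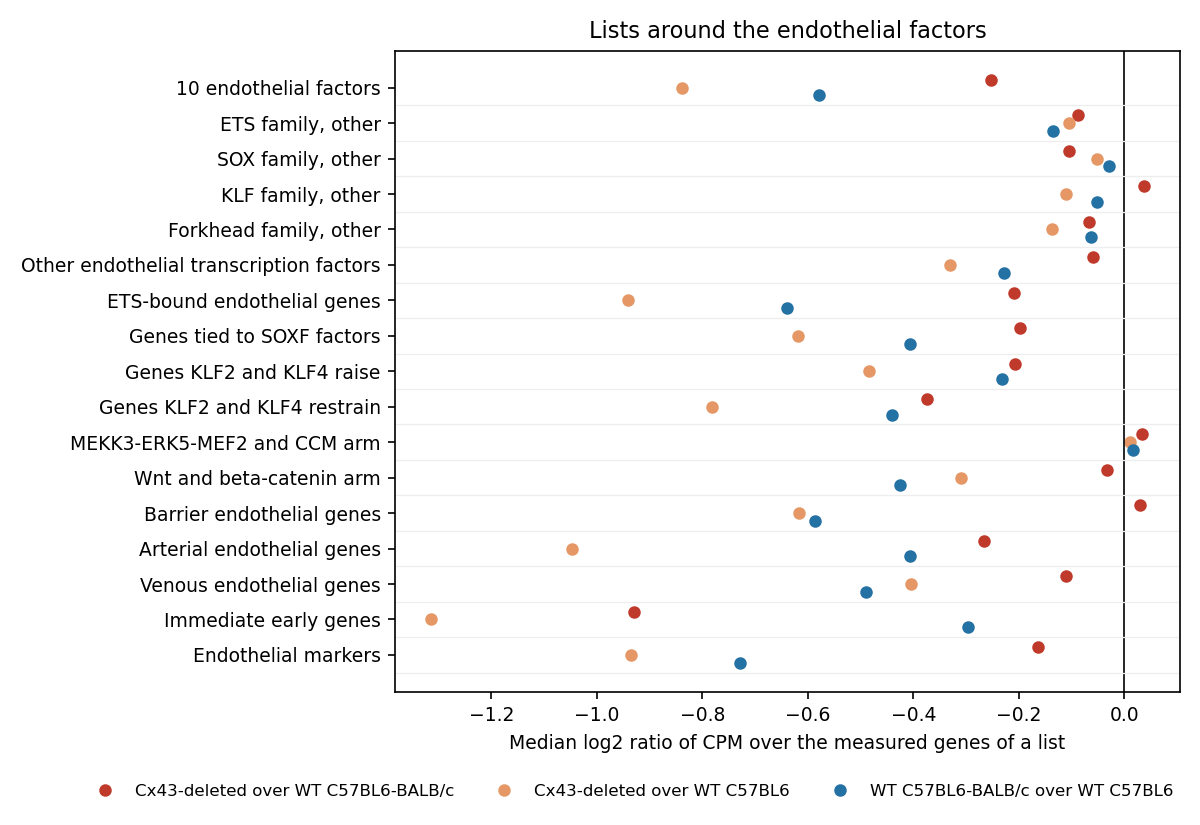
Median log2 ratio of CPM over the measured genes of each list, for the 3 pairs of libraries (colours), with the 10 factors at the top. The factors (−0.25, −0.84 and −0.58) lie near the endothelial markers (−0.16, −0.93 and −0.73), while the flow-sensing and MEKK3, ERK5 and MEF2 list lies near 0.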

How the data were processed

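Brain vessel RNA was analysed in 3 libraries, grouped by their labels. For every library the authors deposited a whole-number read count on each of 82813 Ensembl transcripts, per the file headers, without normalisation. Another deposited column holds the count as a fraction of the library total, and gave the totals. Counts sum to 2.55, 2.53 and 2.45 times the totals, so that reads were counted on several overlapping transcripts. CASAVA 1.8.2, Bowtie and mm10 appear in the submitters' processing notes, and a TruSeq v2 kit on poly(A) RNA in the labels' protocols. The counting program and its annotation are unknown here. Positions in the tables exceed GRCm38 on chromosome 1 (197054592, past the last gene end at 195323493), and only GENCODE M21 positions are printed.

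By identifier, 69379 transcripts matched GENCODE M21, of which 217 on a different chromosome were dropped. Gene sums were scaled by the total and TMM (0.976, 1.002 and 1.02; edgeR 4.0.16, R 4.3.3). The log2 ratios add a pseudocount of 0.5 and so understate low genes. A gene was measured when any library reached a level of 1. RPKM and folds use 1 transcript per gene, with Poisson or binomial exact 95% intervals (Python 3.11.15, scipy 1.17.1) that cover counting error only. Single libraries allow no test. The steps were tested on simulated data. All 10 factors are named. Of other lists, genes 2-fold beyond both WT libraries and up to 4 furthest outside both could be named, as could Pecam1, Cdh5 and Cldn5. Factors and lists were chosen with earlier results of these data known. Alternatives were pseudocounts of 0.1 and 1, totals without TMM, median-of-ratios factors (DESeq2 1.42.0), the most abundant transcript alone, no filter, and a minimum level of 5.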

Additional observations from a re-analysis of the deposited data

How the results depend on the processing

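Under each of 7 alternative settings, 9 factors lay below both WT libraries. The pseudocounts and the filters could not change this count, so only the scaling and transcript settings bear on it. Of 210 log2 ratios of the factors over these settings, 1 changed sign and 3 moved beyond counting error. The 210 include ratios with no filter and with a minimum level of 5, which could not differ from the main ones. The sign changed for Sox18 between the WT libraries, near 0 throughout, at 0.01 with median-of-ratios size factors. The others moved with library totals in place of TMM scaling: Ets1 (−1.27), Sox17 (−0.32) and Klf2 (−1.19), each relative to WT C57BL6. The count of factors 2-fold below WT C57BL6 was 4 with a pseudocount of 0.1 or with library totals, since Fli1 sits at the threshold. Of all genes, those 2-fold higher in WT C57BL6-BALB/c than in WT C57BL6 (195) were 298 with a pseudocount of 0.1 and 120 with a minimum level of 5. Those 2-fold higher with the deletion than in WT C57BL6-BALB/c (175) were 113 with a minimum level of 5, where fewer genes were counted. No paired analysis was possible because each group has 1 library and the labels give no replicate numbers. Depth limits Erg and Foxq1, whose intervals relative to WT C57BL6-BALB/c include 1, and variation between animals is unknown throughout.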
